A study of Mus musculus with 12 samples.

Results

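The genes described here are 7 members of the Tudor domain family that act in the piRNA pathway of mouse male germ cells: Tdrd1, Tdrd5, Tdrd6, Tdrd7, Tdrd9, Tdrkh and Rnf17. They were taken by Ensembl ID, whatever their values, from the 20345 genes of the processed table, and all 7 were found. In the order above the IDs are ENSMUSG00000025081, ENSMUSG00000060985, ENSMUSG00000040140, ENSMUSG00000035517, ENSMUSG00000054003, ENSMUSG00000041912 and ENSMUSG00000000365. The table gives no symbols and none of its IDs is listed in the RefSeq gene table, so each symbol is the one that came with its ID. RNA recovered by immunoprecipitation (IP) of MIWI, the mouse PIWI protein of meiotic and early haploid germ cells, and unselected RNA of the same material (input) were sequenced from samples labelled as late spermatocytes, after removal of ribosomal RNA. The protocol in the labels names both testes and sorted cells as sources of RNA, without saying which applies to which sample. The genotypes were Miwi ADH/-, Miwi -/- and Miwi +/-. The ADH mutation lies among the residues that give a PIWI protein its RNA-cutting activity. Miwi ADH/- cells carry this allele as their only Miwi copy, Miwi -/- cells carry none, and Miwi +/- cells carry 1 intact copy, so a Miwi null allele was present in all 3 genotypes and no group had 2 intact copies. The sources used here state neither age nor strain, nor how many animals made up a sample.

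Tudor domains are folds that bind methylated arginines, and PIWI proteins carry such arginines near their N terminus. Tudor proteins gather PIWI proteins, piRNA precursors and helicases in the granules of germ cells: the intermitochondrial cement of spermatocytes and the chromatoid body of spermatids. Loss of single members is known to block mouse spermatogenesis at different stages.

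The labels describe 12 samples, 2 for each of 6 combinations of genotype and IP or input, but the table holds 1 column per combination, in RPKM (reads scaled to 1 kilobase of gene and to 1000000 reads in the library). No replicate spread could therefore be computed. Each comparison below is between single columns and carries no test, and the 95% intervals cover counting error of reads only. Reads in the listed genes numbered 3706479, 761525 and 1725558 in the IPs of Miwi ADH/-, -/- and +/-. The corresponding inputs had 2627634, 3810918 and 3918947. The members had between 56 reads (Tdrkh, Miwi ADH/- input) and 6354 reads (Tdrd1, Miwi -/- input). Their counting intervals are narrow except for Tdrkh and in the Miwi -/- IP, where members had 85 (Tdrkh) to 424 (Tdrd6) reads. RPKM in an IP is a share of the reads of that IP and does not measure how much RNA was recovered. Because the IDs are not paired with names here, the level of Miwi itself and the markers of late spermatocytes and of other testis cells were not analysed, and the genotype and cell type labels were not checked.

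Promoter windows from RefSeq (GRCm38.p6, 250 bases before to 50 bases after a gene start) were found for 5 of the 7 genes, in 9 entries. Tdrd6 and Rnf17 are named only. The submitters' processing notes name mm9 for the table itself, and the windows serve here as sequence context only. They are shown for 4 genes, chosen after their values were seen, whose RNA patterns differ: Tdrd1 (the member with the largest genotype difference in input), Tdrd7 (the member whose IP level was furthest apart between Miwi -/- and Miwi +/-), Tdrd9 and Tdrkh (the members at opposite ends of the IP-to-input values in Miwi +/-). Capitals mark matches, on either strand, to the MYB forms TAACNG and CAACNG or to the E-box CACGTG. No match overlaps another. A-MYB is known to drive transcription of pachytene piRNA precursors and piRNA pathway genes in mouse spermatocytes.
Tdrd1, chr19:56825959-56826258, + strand: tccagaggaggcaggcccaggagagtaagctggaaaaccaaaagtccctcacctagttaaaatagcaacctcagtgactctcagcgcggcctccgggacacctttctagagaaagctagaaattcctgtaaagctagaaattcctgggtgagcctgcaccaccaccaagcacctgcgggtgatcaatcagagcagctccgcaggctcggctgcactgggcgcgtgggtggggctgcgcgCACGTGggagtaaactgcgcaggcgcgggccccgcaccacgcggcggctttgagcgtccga
Tdrd7, chr4:45972581-45972880, + strand: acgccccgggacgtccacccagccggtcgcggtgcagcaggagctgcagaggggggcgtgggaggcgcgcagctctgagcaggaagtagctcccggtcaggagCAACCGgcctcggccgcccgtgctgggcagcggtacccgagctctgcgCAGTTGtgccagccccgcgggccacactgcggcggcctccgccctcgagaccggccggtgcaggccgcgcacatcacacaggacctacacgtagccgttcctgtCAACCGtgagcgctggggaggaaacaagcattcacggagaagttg
Tdrd9, chr12:111971309-111971608, + strand: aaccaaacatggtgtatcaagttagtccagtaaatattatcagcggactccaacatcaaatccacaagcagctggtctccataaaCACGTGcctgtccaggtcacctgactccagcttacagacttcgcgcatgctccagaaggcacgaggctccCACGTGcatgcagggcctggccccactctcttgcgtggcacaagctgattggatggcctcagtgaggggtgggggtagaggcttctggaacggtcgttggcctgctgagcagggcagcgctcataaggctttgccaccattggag
Tdrkh, chr3:94412994-94413293, + strand: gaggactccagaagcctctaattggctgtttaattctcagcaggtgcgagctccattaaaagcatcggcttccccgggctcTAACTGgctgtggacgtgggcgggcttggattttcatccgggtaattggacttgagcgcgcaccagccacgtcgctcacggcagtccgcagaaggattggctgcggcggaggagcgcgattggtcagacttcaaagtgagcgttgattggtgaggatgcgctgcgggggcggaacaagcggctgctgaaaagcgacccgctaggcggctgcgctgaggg
The Tdrd1 window held 1 E-box and 0 MYB forms, and the Tdrd9 window held 2 E-boxes and 0 MYB forms. The Tdrd7 window held 3 MYB forms and that of Tdrkh held 1, with 0 E-boxes in either. Tdrd1 and Tdrd7 have 3 entries each, and the first is shown for Tdrd1 and the last for Tdrd7. The others held 1 and 0 E-boxes for Tdrd1, and 4 and 0 MYB forms for Tdrd7, and the choice among them followed no rule. Over the 9 entries, 4 held a MYB form and 3 an E-box, against 49.7% and 7.15% of all 32851 windows of 300 bases. Of the 3 with an E-box, a pair are overlapping windows of Tdrd1 that share the same match.

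All 7 genes were expressed in every column, and 6 of them lay above the median level of the kept genes in all 6 columns. The exception was Tdrkh, whose 6.50 RPKM in the Miwi ADH/- input was below the median of 6.90 RPKM there. Kept genes are the 12246 that reached 1 RPKM in 2 or more columns, and all 7 members were among them. The members together took 0.313%, 0.201% and 0.259% of the listed reads in the Miwi ADH/-, -/- and +/- IPs. In the inputs of these genotypes they took 0.305%, 0.393% and 0.299%. The share in the Miwi -/- columns was thus the lowest of the IPs and the highest of the inputs. In the inputs this rested largely on Tdrd1. It held 6354 of the 14973 member reads in Miwi -/-, against 2633 of 8021 in Miwi ADH/- and 2504 of 11714 in Miwi +/-.

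**Figure D1:**
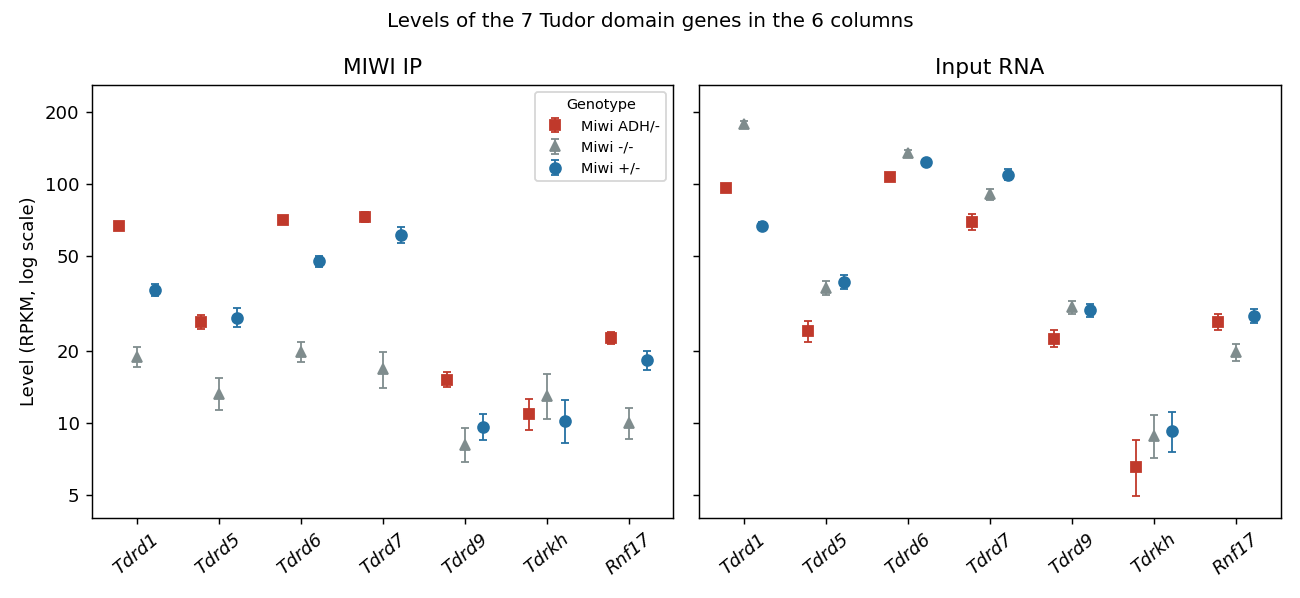
RPKM (log scale) of each gene in the MIWI IP (left panel) and the input (right panel) of the 3 genotypes, with 95% counting intervals. As deposited, the Miwi -/- level in the IPs is the lowest of the 3 for every gene except Tdrkh, and in the inputs Tdrd1 is highest in Miwi -/-.

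In the input RNA, the clearest difference concerned Tdrd1, a scaffold of the intermitochondrial cement that binds the PIWI protein MILI. Tdrd1 stood at 95.8 RPKM in Miwi ADH/- and 179 RPKM in Miwi -/-, against 66.7 RPKM in Miwi +/-. The input level was 2.68-fold higher in Miwi -/- than in Miwi +/- (95% counting interval 2.56 to 2.80) and 1.44-fold higher in Miwi ADH/- (1.36 to 1.52). On the log2(RPKM + 1) scale, used for all comparisons across genes, the differences were 1.41 and 0.51, which placed Tdrd1 at percentiles 98.1 and 83.0 of the kept genes. Tdrd1 was the only member at least 2-fold apart between inputs: 1 of 7 was higher in Miwi -/- and 0 lower, where 4.47% of the kept genes were higher by that much and 10.6% lower. Between the mutants, its level in Miwi ADH/- was 0.536 times that in Miwi -/- (0.512 to 0.561). In bulk RNA, more or fewer cells of a type and more or less RNA per cell cannot be told apart.

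Tdrd6 and Tdrd7, which act in the chromatoid body, lay nearer to Miwi +/- than Tdrd1 or below it. Tdrd6, a protein of many Tudor domains that binds MIWI, had 107 RPKM in the Miwi ADH/- input and 135 RPKM in the Miwi -/- input, against 124 RPKM in Miwi +/-. Its ratios to Miwi +/- were 0.867 (0.828 to 0.908) in Miwi ADH/- and 1.09 (1.05 to 1.14) in Miwi -/-, small in both cases but on opposite sides of equality. Tdrd7, which is known for chromatoid body assembly and also acts in the eye lens, had 69.3 RPKM in Miwi ADH/- and 90.5 RPKM in Miwi -/-, against 109 RPKM in Miwi +/-. Both mutant inputs were below Miwi +/- for Tdrd7, with ratios of 0.633 (0.579 to 0.692) in Miwi ADH/- and 0.827 (0.766 to 0.891) in Miwi -/-.

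Tdrd5, which takes part in the processing of pachytene piRNA precursors, had 24.2 RPKM in the Miwi ADH/- input and 36.7 RPKM in the Miwi -/- input, against 38.8 RPKM in Miwi +/-. It was lower in Miwi ADH/- (0.623-fold, 0.551 to 0.703), whereas the interval for Miwi -/- included equality (0.947-fold, 0.858 to 1.04). Tdrd9, a helicase known as the partner of the fetal PIWI protein MIWI2 in transposon silencing, had 22.5 RPKM in Miwi ADH/- and 30.4 RPKM in Miwi -/-, against 29.6 RPKM in Miwi +/-. The pattern resembled that of Tdrd5, with a ratio of 0.761 (0.686 to 0.844) in Miwi ADH/- and one that included equality in Miwi -/- (1.03, 0.941 to 1.12). Rnf17, which joins a RING finger to Tudor domains and is needed for spermatid development, ran the other way. It had 26.4 RPKM in Miwi ADH/- and 19.8 RPKM in Miwi -/-, against 28.01 RPKM in Miwi +/-. The Miwi -/- input was lower (0.705-fold, 0.635 to 0.783), while that of Miwi ADH/- included equality (0.943-fold, 0.85 to 1.05).

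Tdrkh anchors PIWI proteins at the mitochondrial surface, where piRNA precursors are trimmed, and was the lowest member in all 3 inputs. It had 6.50 RPKM in Miwi ADH/- and 8.79 RPKM in Miwi -/-, against 9.19 RPKM in Miwi +/-. With 56 reads in Miwi ADH/- and 98 in Miwi -/-, against 108 in Miwi +/-, its ratios were 0.708 (0.503 to 0.986) and 0.957 (0.721 to 1.27).

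Seen over the list, the median log2 difference of the 7 members was -0.38 for Miwi ADH/- and -0.06 for Miwi -/-, each relative to Miwi +/-, against -0.16 and -0.02 for all kept genes. In Miwi ADH/-, 6 of 7 members lay below equality (4 with median-of-ratios scaling, where Tdrd6 was at 0.04 and Rnf17 at 0.16) and 0 were at least 2-fold apart, where 7.80% of kept genes were higher by that much and 7.42% lower. Both mutants were set against the same Miwi +/- column, so their ratios share its counting error. Between the mutants, the median was -0.38 for Miwi ADH/- minus Miwi -/-, against -0.18 for all kept genes, and Rnf17 was the only member higher in Miwi ADH/- (1.34-fold, 1.19 to 1.5). Again 0 members were at least 2-fold apart, where 12.6% of kept genes were higher and 6.54% lower.

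**Figure D2:**
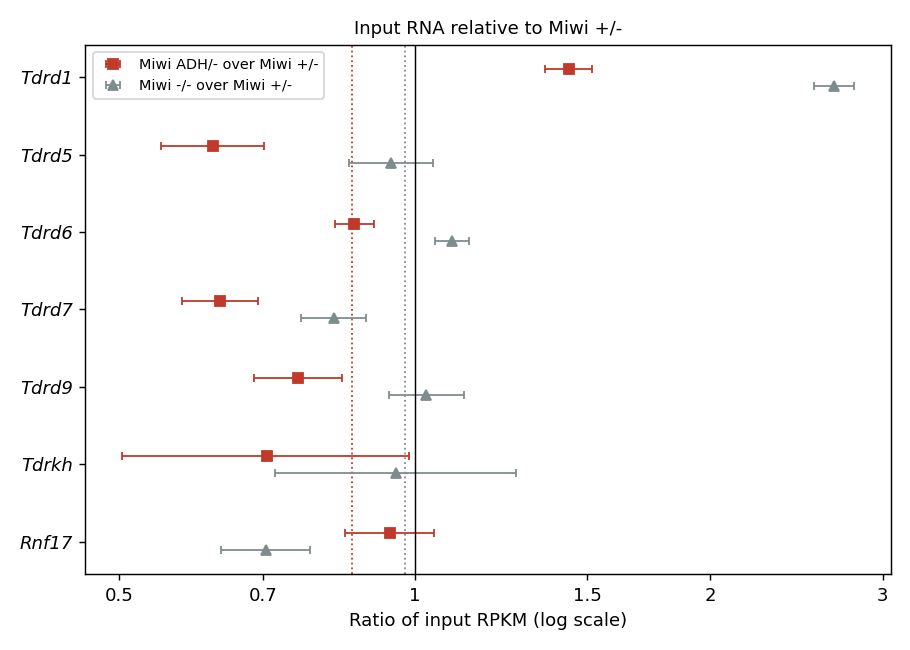
Input RPKM of the Miwi ADH/- and Miwi -/- columns divided by that of Miwi +/- (log scale), with 95% counting intervals and dotted lines at the median ratio of the kept genes (0.864 for Miwi ADH/- and 0.977 for Miwi -/-). Tdrd1 stands apart at 1.44 and 2.68, and the other points lie between 0.623 and 1.09.

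The IP-to-input ratio compares a gene's share of the IP reads with its share of the input reads. In the Miwi +/- cells the IP level was below the input level for 6 of 7 members, and lowest relative to input for Tdrd9 and Tdrd6. The upper quartile of the kept genes was -0.09 on the log2(RPKM + 1) scale, so most of them were below their input too. Tdrd9 had 9.60 RPKM in the IP against 29.6 RPKM in the input, a ratio of 0.324 (0.282 to 0.372). Tdrd6 had 47.4 RPKM against 124 RPKM, a ratio of 0.384 (0.361 to 0.407). These were the 2 members at least 2-fold lower in the IP, where 40.6% of kept genes were lower by that much and 4.24% higher, so 2 of 7 is not above the background share. From the median of the kept genes 0 of 7 were so in either direction, where 15.4% were higher and 15.5% lower.

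The ratios of the remaining members in Miwi +/- were between those of Tdrd6 and equality, apart from Tdrkh. Tdrd1 had 36.0 RPKM in the IP against 66.7 RPKM in the input (0.539, 0.501 to 0.579), and Tdrd7 had 61.1 against 109 RPKM (0.558, 0.510 to 0.611). Rnf17 had 18.2 RPKM in the IP against 28.01 RPKM in the input (0.650, 0.580 to 0.729), and Tdrd5 had 27.6 against 38.8 RPKM (0.711, 0.635 to 0.796). Tdrkh was the only member whose IP level was above its input level, at 10.2 against 9.19 RPKM, but its interval included equality (1.11, 0.831 to 1.47). The median ratio of the kept genes was 0.491, which 5 of the 7 exceeded as plain ratios. On the log2(RPKM + 1) scale 3 of 7 lay above the median. With median-of-ratios scaling, which sets the typical gene detected in all columns equal between columns, Tdrd5, Tdrd7 and Rnf17 were above their input too (0.38, 0.04 and 0.25 on the log2 scale).

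In the Miwi ADH/- cells, the IP and input levels of the members were closer. Tdrd5 had 26.4 RPKM in the IP against 24.2 RPKM in the input (1.09, 0.969 to 1.24) and Tdrd7 had 72.8 against 69.3 RPKM (1.05, 0.961 to 1.15), so neither was apart beyond counting error. Tdrkh was above its input, at 10.8 against 6.50 RPKM (1.67, 1.23 to 2.29). Rnf17 was slightly below, at 22.6 RPKM in the IP against 26.4 RPKM in the input (0.857, 0.775 to 0.949). The 3 others had similar ratios, with Tdrd1 at 66.4 against 95.8 RPKM (0.693, 0.659 to 0.729), Tdrd9 at 15.1 against 22.5 RPKM (0.672, 0.602 to 0.751) and Tdrd6 at 70.7 against 107 RPKM (0.660, 0.629 to 0.692). None of the 7 was at least 2-fold apart in this genotype, where the IP was higher for 4.83% of kept genes and lower for 25.0%. From the median of the kept genes Tdrkh was at least 2-fold higher and 0 members lower, where 12.0% were higher and 13.4% lower.

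By its genotype label the Miwi -/- IP lacks MIWI, the target of the antibody, and it is read here as the background of the procedure. What else the antibody binds was not examined. The members spanned a narrower range there than in the input. Their levels ran from 8.09 RPKM (Tdrd9) to 19.8 RPKM (Tdrd6) in the IP, a 2.44-fold span, against 8.79 RPKM (Tdrkh) to 179 RPKM (Tdrd1) in the input, a 20.3-fold span. The SD of log2 RPKM over the members was 0.44 in that IP and 1.53 in its input, against 1.75 and 2.06 over all kept genes. The spans were 6.72-fold and 6.37-fold in the Miwi ADH/- and +/- IPs, and 16.5-fold and 13.4-fold in their inputs. Neighbours in the order of levels had overlapping counting intervals throughout the Miwi -/- IP, which was also the shallowest column, whereas 5 of 6 neighbouring pairs were separated in the Miwi +/- IP and 4 of 6 in the Miwi ADH/- IP.

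In Miwi -/-, the IP-to-input ratio was lowest for the 3 members with the highest input. Tdrd1, the highest in that input, had 18.9 RPKM in the IP against 179 RPKM in the input, a ratio of 0.106 (0.0951 to 0.117). Tdrd6 had 19.8 against 135 RPKM (0.146, 0.132 to 0.162), and Tdrd7 had 16.7 against 90.5 RPKM (0.185, 0.153 to 0.221). The ratios were larger for the members with lower input. Tdrd9 had 8.09 RPKM in the IP against 30.4 RPKM in the input (0.266, 0.223 to 0.315), Tdrd5 had 13.2 against 36.7 RPKM (0.360, 0.302 to 0.427), and Rnf17 had 9.94 against 19.8 RPKM (0.503, 0.423 to 0.596). Tdrkh, the lowest in the input, was above it in the IP, at 13.0 against 8.79 RPKM (1.48, 1.09 to 1.99). The input level is the denominator of each ratio, so the ratio and the input level are not independent measures.

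On the deposited scale, 5 of 7 members were at least 2-fold lower in the Miwi -/- IP than in the matching input and 0 higher, where 60.9% of kept genes were lower and 3.67% higher. Measured from the median difference of the kept genes, -1.37, Tdrd1 and Tdrd6 remained at least 2-fold lower and Tdrkh was at least 2-fold higher, where 25.0% and 23.6% of kept genes were so. The place of the members among all genes depends on the pseudocount, since the log2(RPKM + 1) scale understates the change of genes with low levels: 2 of 7 lay above the median with a pseudocount of 1 and 4 of 7 with 0.1. Spearman correlations of IP with input level were 0.857 in Miwi ADH/-, 0.821 in Miwi -/- and 0.857 in Miwi +/- over the 7 members, against 0.864, 0.693 and 0.821 over all kept genes, as a description of these libraries. The order behind the Miwi -/- value is not resolved, since its neighbours overlapped.

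**Figure D3:**
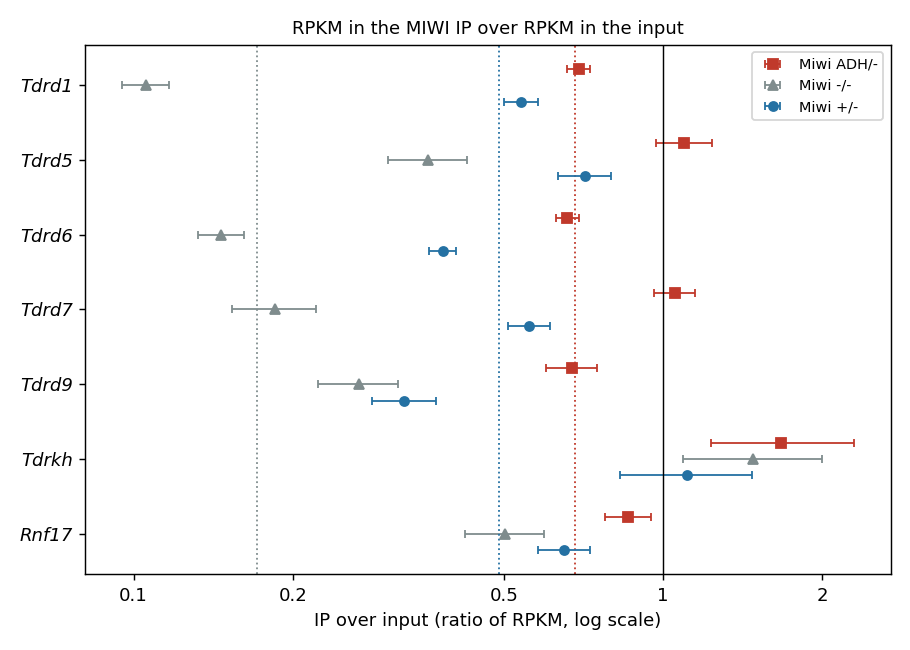
RPKM in the MIWI IP divided by RPKM in the input (log scale) for each gene and genotype, with 95% counting intervals and dotted lines at the median ratio of the kept genes (0.682 in Miwi ADH/-, 0.171 in Miwi -/- and 0.491 in Miwi +/-). Tdrkh lies above 1 in all 3 genotypes, and the Miwi -/- points of the other 6 genes are the lowest of their rows.

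Tdrkh differed from the other 6 members in the IPs. Its IP levels were 10.8 RPKM in Miwi ADH/-, 13.0 RPKM in Miwi -/- and 10.2 RPKM in Miwi +/-, from 180, 85 and 94 reads, and their intervals overlapped. The IP level of Miwi -/- relative to Miwi +/- was 1.28 (0.940 to 1.73), against a median of 0.359 for the kept genes. On the deposited scale, Tdrd9 was the other member whose IP level did not differ beyond counting error between Miwi -/- and Miwi +/-. It had 8.09 against 9.60 RPKM (0.843, 0.687 to 1.03).

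As deposited, the other 5 members had less RPKM in the Miwi -/- IP than in that of Miwi +/-. IP levels alone were compared on the deposited scale only. Median-of-ratios scaling divides the Miwi -/- IP by 0.408 and the Miwi +/- IP by 0.879. It would raise each ratio of these 2 IPs, so directions may depend on the scaling. The ratio was lowest for Tdrd7, at 16.7 RPKM in Miwi -/- against 61.1 RPKM in Miwi +/- (0.274, 0.225 to 0.330). Tdrd6 followed, with 19.8 against 47.4 RPKM (0.417, 0.373 to 0.465), then Tdrd5, with 13.2 against 27.6 RPKM (0.479, 0.399 to 0.574). Tdrd1 had 18.9 RPKM in Miwi -/- against 36.0 RPKM in Miwi +/- (0.524, 0.466 to 0.589), and Rnf17 had 9.94 against 18.2 RPKM (0.545, 0.456 to 0.650). As plain ratios, all of these except Tdrd7 were above the median of 0.359, but on the log2(RPKM + 1) scale 2 of the 7 members, Tdrd9 and Tdrkh, lay above the median of the kept genes. On that scale Tdrd5, Tdrd6 and Tdrd7 were at least 2-fold lower in Miwi -/- and 0 members higher, where 42.1% of kept genes were lower and 5.37% higher.

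Setting each IP against its own input, the IP-minus-input value of Miwi -/- was below that of Miwi +/- for 6 of 7 members, with a median difference of -0.93 on the log2 scale against -0.67 for all kept genes. These medians were -0.98 and -1.01 with a pseudocount of 0.1, and 0.06 and -0.08 with median-of-ratios scaling, where 4 of 7 members (Tdrd5, Tdrd9, Tdrkh and Rnf17) were above 0. Tdrd1 (-2.30), Tdrd7 (-1.54) and Tdrd6 (-1.35) were at least 2-fold lower in Miwi -/- and 0 members were higher, where 39.3% of kept genes were lower and 9.56% higher. For Tdrd1 the IP levels alone differed by -0.90 and the input levels by 1.41, the larger of the 2 differences being that of the inputs. The IP-to-input ratios of Tdrd9, Tdrkh and Rnf17 had overlapping counting intervals in Miwi -/- and Miwi +/-. The intervals of the other 4 members were separate and lower in Miwi -/-, as were those of 42.1% of kept genes, while 6.16% were separate and higher. Measured from the median of the kept genes, Tdrd1 was at least 2-fold lower and Tdrkh at least 2-fold higher, where 21.4% and 20.1% of kept genes were so.

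The IP-minus-input value of Miwi ADH/- was above that of Miwi +/- for all 7 members, with differences from 0.35 (Tdrd1) to 0.99 (Tdrd9) and a median of 0.60. Measured from the median of the kept genes, Tdrd1 was at -0.03 and Rnf17 at it, and with median-of-ratios scaling Tdrd1 was at -0.08 and Rnf17 at -0.04. The counting intervals of the ratios were separate for 6 of 7 members, all but Tdrkh, where those of 31.8% of kept genes were separate and higher and 7.29% separate and lower. That share depends on the reads of a gene as well as on its ratio. The kept genes shared the direction, with a median of 0.38, and 0 of 7 members were at least 2-fold apart, where 20.5% of kept genes were higher in Miwi ADH/- and 7.56% lower. From the median of the kept genes 0 members were so either, where 10.6% were higher and 13.4% lower. The input value in Miwi ADH/- was below that in Miwi +/- for 6 members. In the IPs alone, Tdrd1 had 66.4 RPKM in Miwi ADH/- against 36.0 RPKM in Miwi +/- (1.84-fold, 1.72 to 1.98), Tdrd9 had 15.1 against 9.60 RPKM (1.58-fold, 1.37 to 1.82) and Tdrd6 had 70.7 against 47.4 RPKM (1.49-fold, 1.40 to 1.59). The ratio was 1.24 (1.11 to 1.39) for Rnf17 and 1.19 (1.09 to 1.31) for Tdrd7, while those of Tdrkh (1.07, 0.826 to 1.38) and Tdrd5 (0.959, 0.856 to 1.08) included equality. By IP level 0 members were at least 2-fold apart, where 18.0% of kept genes were higher in Miwi ADH/- and 7.48% lower.

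Between the mutants, catalytically mutant MIWI was set against the absence of MIWI. On the deposited scale the IP-minus-input value was higher in Miwi ADH/- than in Miwi -/- for all 7 members, with a median difference of 1.53 against 1.06 for all kept genes. The lower quartile of the kept genes was 0.21, so most of them were higher too. The medians of the members and of the kept genes were 1.60 and 1.54 with a pseudocount of 0.1. With median-of-ratios scaling they were 0.10 and 0.14, and Tdrkh (-1.28), Rnf17 (-0.69) and Tdrd9 (-0.15) were lower in Miwi ADH/-. As deposited, Tdrd1 (2.65), Tdrd7 (2.44), Tdrd6 (2.12), Tdrd5 (1.53) and Tdrd9 (1.25) were at least 2-fold higher in Miwi ADH/- and 0 members lower, where 51.9% of kept genes were higher and 7.30% lower. Rnf17 (0.71) and Tdrkh (0.14) were under 2-fold, and the ratio intervals of Tdrkh overlapped. Those of the other 6 were separate and higher, where 52.5% of kept genes were so and 4.07% separate and lower. From the median of the kept genes, 3 members (Tdrd1, Tdrd7 and Tdrd6) were at least 2-fold higher and 0 lower, where 20.1% of kept genes were higher and 21.7% lower. In IP levels alone, Tdrd7 had 72.8 RPKM in Miwi ADH/- against 16.7 RPKM in Miwi -/- (4.36-fold, 3.65 to 5.24), and Tdrkh had 10.8 against 13.0 RPKM (0.835-fold, 0.642 to 1.09). By IP level on the log2(RPKM + 1) scale, Tdrd1, Tdrd6, Tdrd7 and Rnf17 were at least 2-fold higher in Miwi ADH/- and 0 members lower. Of the kept genes, 51.8% were higher and 4.93% lower. Tdrd5 was at 0.949 on that scale and at 2.00-fold (1.69 to 2.38) as a plain ratio. The 3 comparisons of IP-minus-input values share columns in pairs and are not independent of each other.

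**Figure D4:**
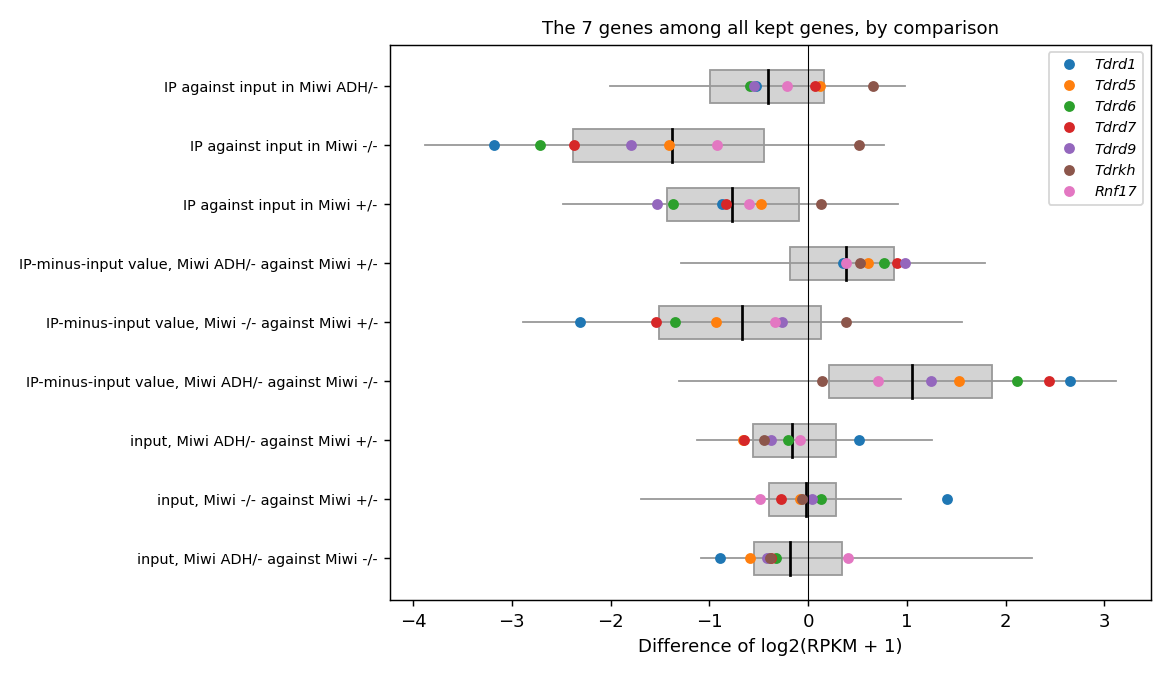
Difference of log2(RPKM + 1) in 9 comparisons, with the 7 genes as coloured points over the 12246 kept genes, shown as a bar from the 25th to the 75th percentile, a black line at the median and a thin line from the 5th to the 95th percentile. Tdrd1 in the Miwi -/- input, at 1.41, is the only point outside the thin lines.

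In the inputs, the order of levels began with Tdrd6, Tdrd1 and Tdrd7 in all 3 genotypes, but in different orders. Tdrd6 was highest in Miwi ADH/-, Tdrd1 in Miwi -/- and Tdrd6 in Miwi +/-, and in each case the first 3 were separated by their counting intervals. Tdrd9 lay within counting error of Tdrd5 in the Miwi ADH/- input and of Rnf17 in the Miwi +/- input. In the IPs, Tdrd7 was highest in Miwi ADH/- and in Miwi +/-, with Tdrd6 within its counting interval in Miwi ADH/- only.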

How the data were processed

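The deposited table gives RPKM, computed by the authors, in 6 columns. Only the Miwi +/- columns carry this unit by name, per the file headers, and the other 4 were taken to have it because each gene's values step alike in all columns. Per the submitters' processing notes, TopHat, Bowtie and the build mm9 were used. How reads were counted, the annotation and any pooling of samples were not stated.

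Read numbers were recovered as the largest step that divides a gene's depth-scaled RPKM values, with a tolerance of 0.002 reads and a relative 1e-07. For the 17452 genes above 0 in 2 or more columns, 100% of values were whole, which the search for such a step favours. A factor common to all columns would go unseen, so read numbers may be too low and intervals then too wide. Ratios have exact 95% intervals (Clopper-Pearson, conditional on summed reads), and single levels exact Poisson ones. PCR copies are not independent molecules, so intervals cover counting error only.

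Comparisons are differences of log2(RPKM + 1) over the 12246 genes that reached 1 RPKM in 2 or more columns, with differences of at least 2-fold counted and no test. All 7 members are named by rule. The 7 members, the lists and the comparisons were chosen with earlier results of these data known. Lists of other Tudor, piRNA pathway and cell type marker genes were fixed by symbol and gave no values, since no ID was paired with a symbol. Promoter windows are RefSeq's (GRCm38.p6). The alternatives were another pseudocount, filters, scalings and fold. Read recovery and counts were also run on simulated Poisson reads. These were built from the recovered steps and depths, so they cannot show that those steps are right, and they hold no replicate spread. Python 3.11.15, numpy 2.4.6, pandas 2.3.3 and scipy 1.17.1 were used.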

Additional observations from a re-analysis of the deposited data

Results flagged for a closer look

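On the deposited scale Tdrd6 lay on opposite sides of Miwi +/- in the mutant inputs. Its input level relative to Miwi +/- was 0.867 in Miwi ADH/- (95% counting interval 0.828 to 0.908) and 1.09 in Miwi -/- (1.05 to 1.14), and both intervals exclude equality. Set directly against each other, the Miwi ADH/- input held 0.794 times the Tdrd6 level of the Miwi -/- input (0.759 to 0.831). With 1 column per genotype the difference was not tested. The median ratio of the kept genes was 0.864 in Miwi ADH/- and 0.977 in Miwi -/-, and with median-of-ratios scaling both Tdrd6 differences were above 0 on the log2 scale (0.04 in Miwi ADH/- and 0.18 in Miwi -/-), so the opposite directions depend on the scaling.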

How the results depend on the processing

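The counts of members at least 2-fold apart in 9 comparisons were repeated under other settings. Dropping the filter or requiring 1 RPKM in all 6 columns changes only which genes are kept, so it cannot change these counts. Measured from the median of the kept genes, the count became 1 for IP against input in Miwi ADH/- (0 as reported), 3 in Miwi -/- (2 lower and 1 higher, against 5 lower) and 0 in Miwi +/- (2), and 3 for the IP-minus-input value of Miwi ADH/- against Miwi -/- (5). With median-of-ratios scaling these were 1, 2, 0 and 2, where each count of 2 was 1 member higher and 1 lower. In that order, 1189, 2518, 1583 and 3311 of the 12246 kept genes were higher and 1740, 3782, 2086 and 2395 lower. The IP-minus-input count of Miwi -/- against Miwi +/- was likewise 1 higher and 1 lower under both, against 3 lower. With median-of-ratios scaling 2357 kept genes were higher there and 3230 lower. At 1.5-fold the count was 2 for IP against input in Miwi ADH/- (1 higher and 1 lower) and 5 in Miwi +/- (all lower). Of the 12246 kept genes, 1488 were higher and 5099 lower in Miwi ADH/-, and 1093 higher and 6985 lower in Miwi +/-. For the IP-minus-input value of Miwi ADH/- against Miwi +/- it was 4 (0 as reported), all higher, where 4711 kept genes were higher and 1719 lower. The input counts were 2 for Miwi ADH/- against Miwi +/- (0) and 1 against Miwi -/- (0), all lower. There 2853 and 2820 kept genes were lower, and 1853 and 2274 higher. A pseudocount of 0.1 raised the IP-minus-input count of Miwi ADH/- against Miwi +/- to 1 (higher), where 3524 kept genes were higher and 1523 lower. The Tdrd1 difference between the Miwi -/- and Miwi +/- inputs was 1.41 to 1.46 on the log2 scale in the settings tried. Median-of-ratios scaling turned 3 differences of at least 2-fold: IP against input in Miwi -/- became 0.44 for Tdrd5 and 0.021 for Tdrd9, and the IP-minus-input value of Miwi ADH/- against Miwi -/- became -0.15 for Tdrd9. The cause was not tested. Of all 63 member differences, 17 changed sign under that scaling and 10 when measured from the median. The filters leave these differences untouched, and another pseudocount cannot turn a difference between 2 columns. None of the IP-minus-input differences, which combine 4 columns, changed sign with a pseudocount of 0.1. No paired analysis was possible because the table holds 1 column per group with no replicate number, and for the same reason no replicate could be left out. Tdrkh, with 56 to 180 reads per column, has the widest intervals.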

Other observations

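Over the 6 columns, 6 of the 7 members had similar profiles of log2(RPKM + 1). Pearson's r with the mean of the other 6 members was 0.988 for Tdrd6, 0.931 for Tdrd7, 0.903 for Tdrd5, 0.901 for Tdrd9, 0.859 for Tdrd1 and 0.845 for Rnf17. For Tdrkh it was -0.73. How many kept genes correlate as strongly was not counted. The kept genes were also lower in the IP than in the input, with median differences of -0.41, -1.37 and -0.77 in Miwi ADH/-, -/- and +/-. All genes share these 6 libraries, so the values are a description and do not show a profile particular to the members.

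Among 6116 other kept genes at or above the median level, those with the profile most like the mean of the members were ENSMUSG00000045835 (r = 0.999 over 6 columns) and ENSMUSG00000039543 (r = 0.998). ENSMUSG00000045835 had 63.6, 15.7 and 41.1 RPKM in the IPs of Miwi ADH/-, -/- and +/-, and 83.1, 125 and 113 RPKM in the inputs in the same order.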
